A study of Mus musculus with 10 samples.

Results

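The secreted and membrane-bound axon guidance cues and their receptors were examined in handpicked cells of the mouse cochlea. The members were all gene symbols of the count files that belong to the Eph, ephrin, semaphorin, plexin, neuropilin, Robo, Slit, netrin and Unc5 families, together with *Dcc*. This gave 69 of the 34590 symbols listed, of which 23415 had at least 1 count. They comprised 14 Eph receptors, 8 ephrins, 20 semaphorins, 9 plexins, 2 neuropilins, 4 Robo receptors, 3 Slits, 4 netrins, and 5 netrin receptors (4 Unc5 receptors and *Dcc*), or 35 ligands and 34 receptors in all.

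Axon guidance molecules steer growing neurites by attraction and repulsion. Ephrins bind Eph receptor tyrosine kinases on neighbouring cells, semaphorins bind plexins with or without neuropilins as co-receptors, Slits bind Robo receptors, and netrins bind Dcc and Unc5 receptors. In the cochlea, hair cells (HCs) are contacted by the peripheral processes of spiral ganglion neurons and by efferent axons, and cues of these families act on those fibers during development. Many of the same genes also serve cell adhesion, boundary formation and vessel growth outside the nervous system.

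Bulk RNA-seq was available for 5 cell types with 2 libraries each. Supporting cells (SCs; replicates 12 and 11, labelled P27 and P26) carried Fgfr3iCreER and a tdTomato reporter behind a loxP-flanked stop, with tamoxifen at P12 and P13 in the study's methods. Converted HCs (cHCs; replicates 13 and 16, both P33) carried the same alleles plus the Atoh1-HA transgene and alpha9 AChR-EGFP, a reporter of the HC gene *Chrna9*, and were picked as tdTomato and EGFP double-positive cells. The mice of the cHCs also received tamoxifen at P12 and P13 in the study's methods. In these mice Fgfr3iCreER recombines in Deiters' and pillar cells, and the CAG promoter then drives Atoh1-HA and tdTomato. OHCs at P7 (replicates 15 and 14) were labelled as prestin-YFP knock-in, whereas the study's methods give PrestinCreERT2 and the tdTomato reporter, induced with tamoxifen on P2 and P3. Mature OHCs, called OHCs (P22) here, came from prestin-YFP knock-in mice, with harvest at P22 and P23 in the methods. Their libraries, labelled P21 and P22, are named m21 and f22 here, as in the titles, where the letter differs between these duplicates. In them prestin, the motor protein of OHCs, is itself tagged. IHCs, labelled P74 and P75 and so the oldest cells here, came from Pval-Cre mice with tdTomato. Their libraries are named m74 and m75 likewise. Age, genotype and cell type therefore changed together between most groups, and their parts cannot be told apart. The study describes the libraries of a cell type as biological duplicates. The sources used here do not say how many mice gave each library, and the p values measure the spread between these libraries.

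The libraries held 15016129 to 40518766 counts on genes. The members took 0.108% to 0.313% of them. The file attached to 4 of the 10 records (those with the counts of SC 11, cHC 13, cHC 16 and OHC (P7) 15) held another library's counts, so that each library was identified by matching its counts to the CPM listed by library number in the study's supplement. *Atoh1* was at 364 and 1812 CPM in cHCs (counts divided by library size and expressed on a common scale), at 0.27 and 1.91 in SCs, at 2.15 and 6.44 in OHCs (P7) and at 0 in the other 4 libraries, without separation of transgene and endogenous transcripts. The 7 HC markers summed to 363 and 361 CPM in SCs and to between 4418 and 9024 CPM in the other libraries. The 7 SC markers summed to 1246 and 1605 CPM in SCs, to 702 and 446 CPM in cHCs, to 76.7 and 260 CPM in OHCs (P7), to 6.61 and 7.83 CPM in OHCs (P22), and to 804 and 639 CPM in IHCs. Of the cHC sums, *Prox1* alone gave 247 and 293.5 CPM, against 14.7 and 53.7 CPM in SCs. Each of the other SC markers was lower in both cHC libraries than in both SC libraries. Of the neuronal markers, *Prph* was at 0 in all 10 libraries and *Tubb3* lay between 0 and 1.68 CPM. The list of 6 neuronal markers, which includes the neurofilament genes *Nefl*, *Nefm* and *Nefh*, summed to 67.4 to 532 CPM in the cHC, OHC and IHC libraries and to 1.07 and 0.16 CPM in SCs.

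Levels below are CPM scaled by the trimmed mean of M-values (TMM) unless given per kilobase of exon. In each cell type the 2 values follow the order of the libraries above, and a member was taken as detected in a cell type when it reached 1 CPM in both libraries. By that measure 26 members were detected in SCs, 36 in cHCs, 31 in OHCs (P7), 18 in OHCs (P22) and 36 in IHCs. The share of all genes detected this way is not given here. Genes with any count numbered 14332 in OHC (P22) m21, the fewest of all libraries, and 16948 in OHC (P22) f22. The study lists the fewest cells per library for OHCs (P22) and the most for IHCs. The part of cell number and library quality in the detected numbers was not tested. Because bulk libraries were used, a lower level may mean fewer expressing cells or less RNA per cell, and these cannot be told apart. Detected ligands and receptors numbered 16 and 20 in cHCs and 11 and 7 in OHCs (P22).

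**Figure D1:**
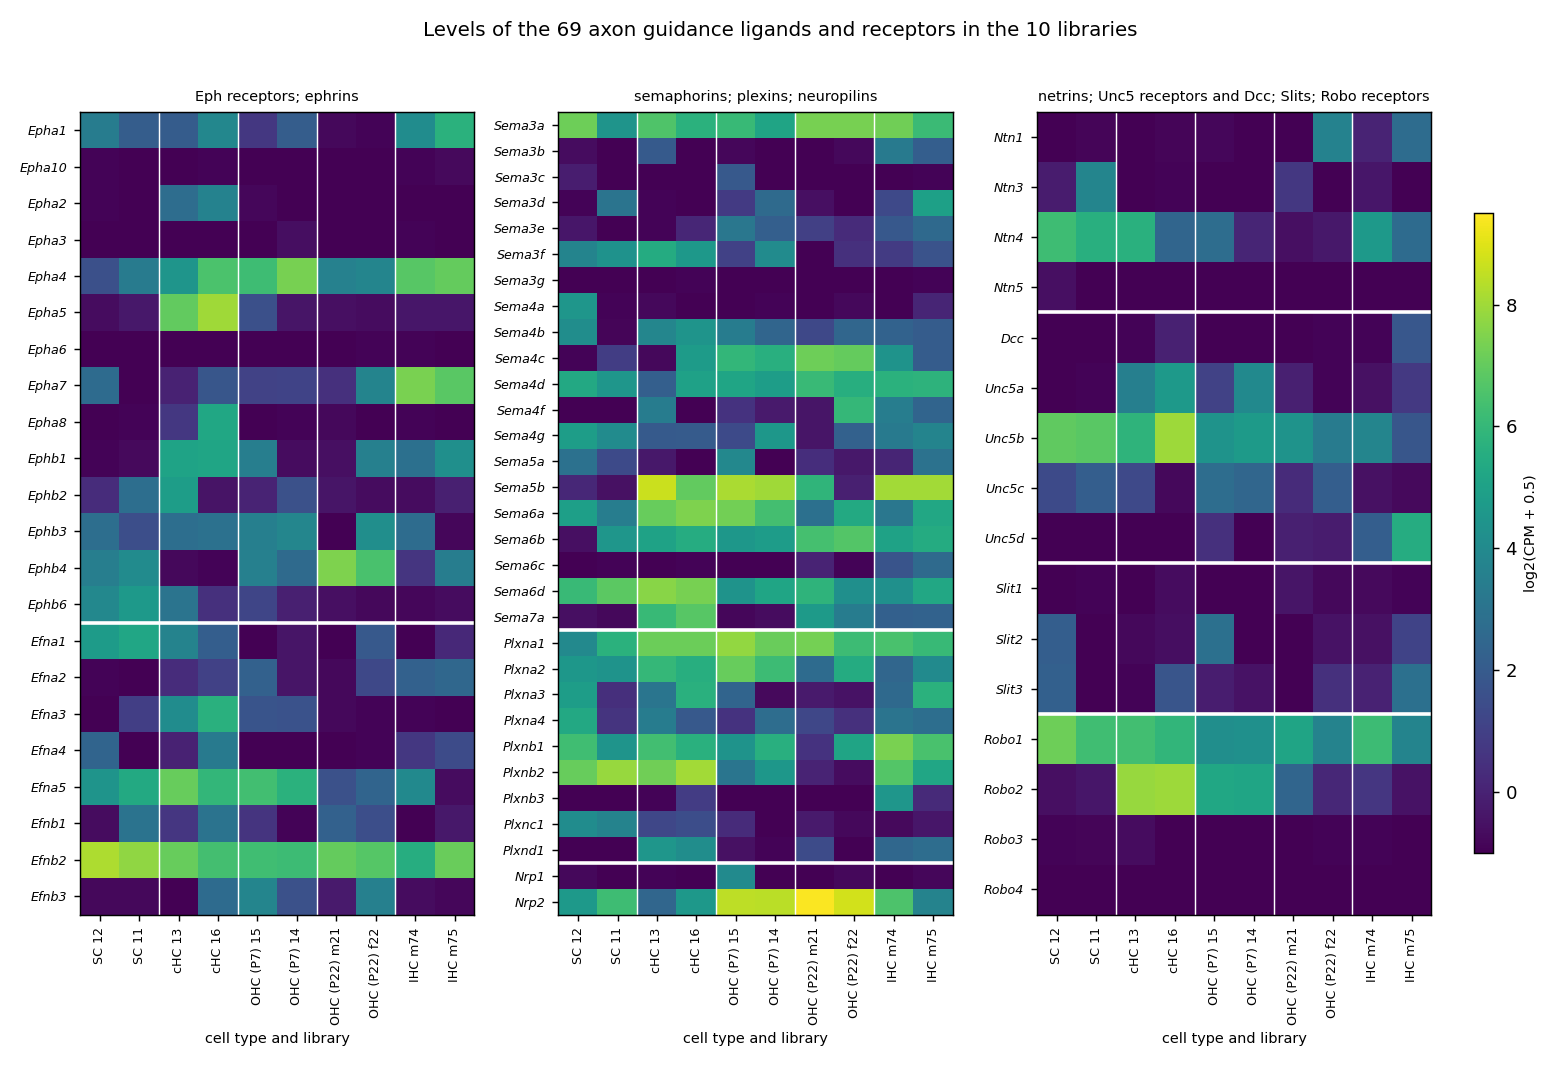
Levels of all 69 members in the 10 libraries as log2(CPM + 0.5), with 1 row per gene grouped by family and 1 column per library in the order of cell types. White lines separate families and cell types. *Efnb2*, *Robo1* and *Plxna1* were above 12 CPM in every library, while *Robo4* had no count in any of them.

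A common set of 11 members was detected in all 5 cell types. It held the ligands *Efnb2*, *Sema3a*, *Sema4d*, *Sema6a* and *Sema6d* and the receptors *Epha4*, *Nrp2*, *Plxna1*, *Plxna2*, *Robo1* and *Unc5b*. *Efnb2*, a transmembrane ephrin, ranged from 45.6 CPM in IHC m74 to 297 CPM in SC 12. *Nrp2*, a co-receptor of class 3 semaphorins, had the widest range of the 11 in CPM, from 4.98 CPM in cHC 13 to 690 CPM in OHC (P22) m21.

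The summed level of the members was 2455 and 2640 CPM in cHCs. It was 1485 and 1280 CPM in SCs, 1840 and 1617 CPM in OHCs (P7), 1859 and 1497 CPM in OHCs (P22), and 1577 and 1439 CPM in IHCs. The cHC values therefore lay above those of the other 8 libraries. Without *Robo2*, *Epha5*, *Sema5b* and *Sema7a*, the 4 members that were higher in cHCs than in SCs in the test below, the cHC sums were 1626 and 1909 CPM. The other libraries then ranged from 1171 to 1770 CPM, so that cHC 13 lay within that range. These 4 were chosen for their levels in the same data, so that their removal had to lower the cHC sums more than those of SCs. Without the members called in any test below, the cHC sums were 1342 and 1239 CPM. Both then lay above all other libraries, of which SC 12 was the highest at 1116 CPM. The members removed here were also chosen in the same data. They include *Nrp2*, at 690 and 443 CPM in OHCs (P22), so that their removal also lowered sums of other cell types. The order of these sums therefore depends on that choice. In OHCs (P22) *Nrp2* alone gave 62.2% and 57.7% of the receptor sum.

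**Figure D2:**
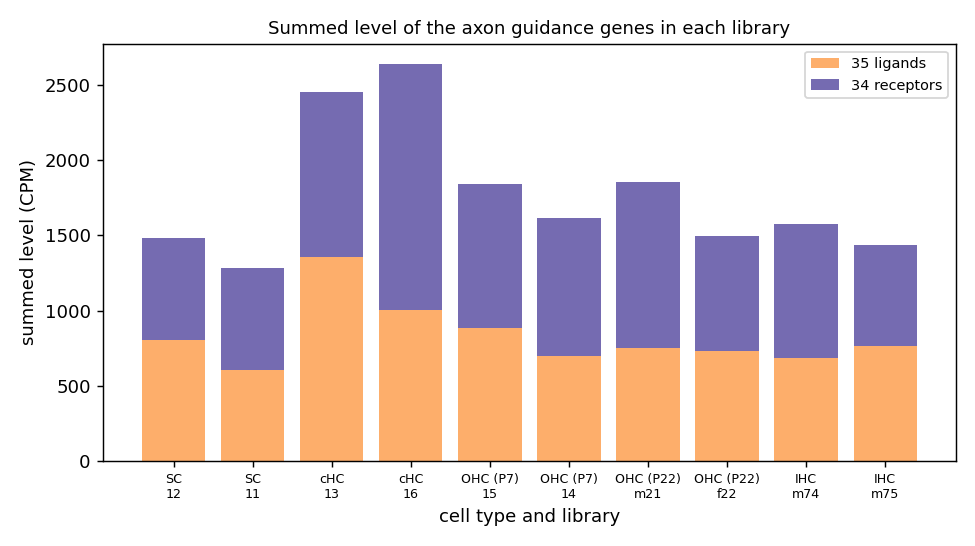
Summed level of the 35 ligands (lower part of each bar) and the 34 receptors (upper part) in CPM for each of the 10 libraries. Both cHC bars, at 2455 and 2640 CPM, are higher than the other 8.

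The first comparison asks which members differ between cHCs and SCs, which came from mice without Atoh1-HA. *Robo2*, *Epha5*, *Sema7a* and *Sema5b* were higher in cHCs and *Ephb4* was lower. *Robo2*, a receptor for Slits, was at 0.18 and 0.27 CPM in SCs and at 234 and 247 CPM in cHCs. This is a log2 fold change of 10.04 ± 1.44 (SE, n = 2 per cell type, edgeR FDR = 0.00379). The levels did not overlap, and the cHC duplicates lay closer together than those of any other called member in cHCs. *Epha5*, an Eph receptor that binds mainly A-type ephrins, was at 0.13 and 0.29 CPM in SCs and at 126 and 253 CPM in cHCs, with a log2 fold change of 9.74 ± 1.48 (edgeR FDR = 0.00561). In every other library it was at or below 2.42 CPM.

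*Sema7a*, a semaphorin held in the membrane by a lipid anchor, was at 0.18 and 0.08 CPM in SCs and at 67.5 and 107 CPM in cHCs. Its log2 fold change was 9.39 ± 1.46 (edgeR FDR = 0.0063). *Sema5b*, a transmembrane semaphorin, was at 0.62 and 0.19 CPM in SCs and at 401 and 124 CPM in cHCs, with a log2 fold change of 9.37 ± 1.89 (edgeR FDR = 0.0308). All 4 genes were higher in each cHC library than in each SC library. *Ephb4*, a receptor of ephrin-B2 known from blood vessels, was at 10.8 and 16.4 CPM in SCs. In cHCs it had 3 counts in all (0.09 and 0.03 CPM), and its log2 fold change was -7.92 ± 1.53 (edgeR FDR = 0.0247). The pooled SC level was 299.9 times the cHC level, with a 95% counting interval of 102 to 1457.

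Thus 5 of the 59 members that passed the filter on low counts were called (8.47%), against 1.84% of all 16891 genes tested. In the higher direction 1.75% of all genes were called and in the lower direction 0.0888%. The median log2 ratio of mean levels, with 0.5 CPM added, was 0.55 over the 59 members and 0.02 over all genes tested. An unadjusted p under 0.05 was found for 16 members. The largest positive and the largest negative fitted differences without overlap that did not pass were those of *Plxnd1*, a plexin at 0 counts in SCs and at 22.3 and 17.2 CPM in cHCs, at least 383-fold higher against 3 counts over the SC libraries (edgeR FDR = 0.144), and *Ntn3*, a netrin at 0.36 and 13.1 CPM in SCs and at 0 and 0.03 CPM in cHCs (edgeR FDR = 0.335).

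Library titles came in 2 forms, and SCs, cHCs and OHCs (P7) each had 1 library of either form. Within both forms the log2 ratio of cHC to SC was close to the fit for *Robo2* (10.37 and 9.86), *Epha5* (9.89 and 9.76) and *Sema5b* (9.33 and 9.38), and it was 8.57 and 10.40 for *Sema7a* and -6.99 and -9.33 for *Ephb4*. Without cHC 16 only *Robo2* and *Sema5b* were called, with an edgeR FDR of 0.0587 for *Epha5*, 0.061 for *Sema7a* and 0.183 for *Ephb4*. The call of *Ephb4* was also lost without cHC 13 (0.061), that of *Sema5b* without SC 12 (0.0741) or SC 11 (0.113), and that of *Sema7a* without SC 11 (0.0545). *Ephb4* was not called when the fit held just SCs and cHCs (edgeR FDR = 0.177). With the files as attached to the records, no member was called (5 had an unadjusted p under 0.05) and all 5 differences changed sign. In that assignment SCs hold replicates 12 and 13, whose HC markers sum to 363 and 4418 CPM.

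**Figure D3:**
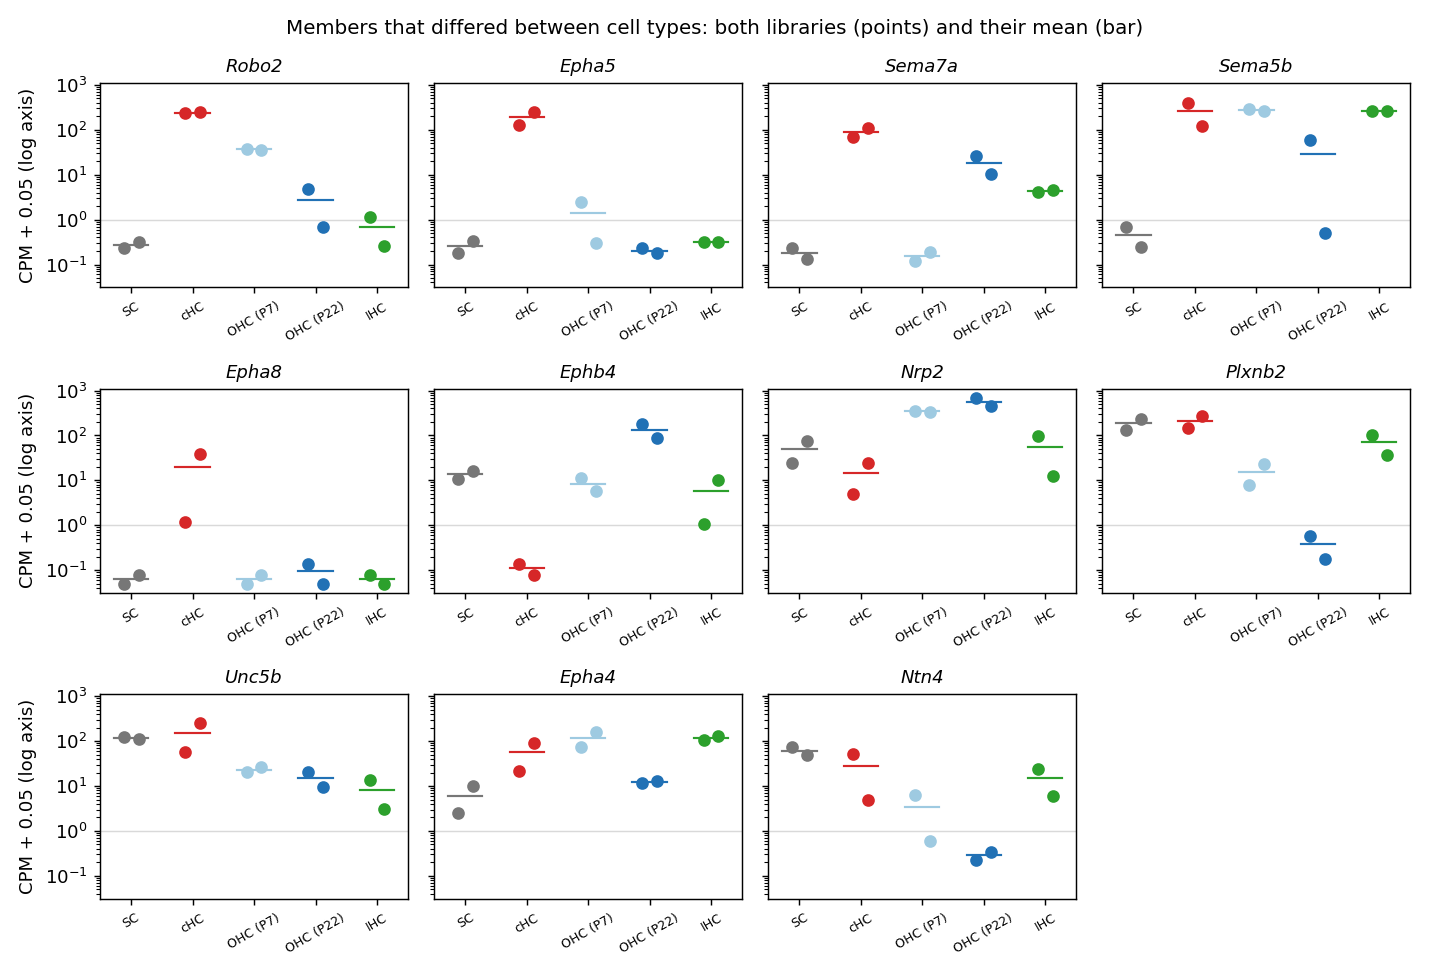
Levels of the 11 members that were called in any test, as CPM + 0.05 on a log axis, in the 5 cell types. Points are the 2 libraries and bars their mean. *Robo2*, *Epha5*, *Sema7a* and *Sema5b* lie below 1 CPM in SCs and above 60 CPM in cHCs. Wide gaps between duplicates are seen for *Epha8* in cHCs and for *Sema5b* in OHCs (P22).

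The DNA upstream of these 4 genes is shown because they were higher together in cells with ectopic Atoh1, a basic helix-loop-helix factor of a class that binds E-boxes. The 250 bases before each annotated start come from RefSeq on GRCm38.p6, which is not the build of the counts (mm9), and 59 of the 69 members had an entry. *Robo2* had 3 annotated starts and the others 1 each, and gene-level counts do not tell which start was used. Capitals mark the E-box CANNTG, whose reverse complement is the same pattern.
Robo2 window 1 (chr16:75447294-75447543, minus strand): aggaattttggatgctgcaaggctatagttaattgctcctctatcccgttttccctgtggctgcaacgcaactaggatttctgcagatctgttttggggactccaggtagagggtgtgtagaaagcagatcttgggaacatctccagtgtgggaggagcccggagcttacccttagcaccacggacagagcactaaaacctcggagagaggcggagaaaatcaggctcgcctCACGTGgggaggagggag
Robo2 window 2 (chr16:75092771-75093020, minus strand): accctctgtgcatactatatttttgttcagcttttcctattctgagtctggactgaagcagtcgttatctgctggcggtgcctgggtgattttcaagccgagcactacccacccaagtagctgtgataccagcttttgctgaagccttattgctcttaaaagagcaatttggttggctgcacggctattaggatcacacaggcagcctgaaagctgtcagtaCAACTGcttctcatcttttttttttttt
Robo2 window 3 (chr16:74411826-74412075, minus strand): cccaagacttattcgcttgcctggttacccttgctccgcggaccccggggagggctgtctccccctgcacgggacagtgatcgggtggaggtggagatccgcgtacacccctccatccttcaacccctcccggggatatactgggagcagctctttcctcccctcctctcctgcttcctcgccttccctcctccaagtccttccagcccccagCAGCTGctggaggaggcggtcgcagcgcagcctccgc
Sema7a (chr9:57939862-57940111, plus strand): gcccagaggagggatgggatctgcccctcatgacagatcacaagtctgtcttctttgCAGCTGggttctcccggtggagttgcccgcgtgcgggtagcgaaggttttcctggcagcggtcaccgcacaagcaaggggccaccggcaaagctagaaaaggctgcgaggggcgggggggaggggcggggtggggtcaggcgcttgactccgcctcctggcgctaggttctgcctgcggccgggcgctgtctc
Epha5 (chr5:84417383-84417632, minus strand): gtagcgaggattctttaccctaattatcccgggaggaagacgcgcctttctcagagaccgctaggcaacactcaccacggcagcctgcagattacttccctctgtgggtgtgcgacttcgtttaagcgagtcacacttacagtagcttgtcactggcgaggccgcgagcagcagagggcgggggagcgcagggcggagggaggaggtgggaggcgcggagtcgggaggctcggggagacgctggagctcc
Sema5b (chr16:35541112-35541361, plus strand): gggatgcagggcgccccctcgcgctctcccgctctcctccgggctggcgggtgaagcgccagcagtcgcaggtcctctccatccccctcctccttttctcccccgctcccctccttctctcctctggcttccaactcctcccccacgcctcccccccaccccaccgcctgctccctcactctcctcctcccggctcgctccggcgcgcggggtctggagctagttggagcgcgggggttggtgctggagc
An E-box lay in 4 of these 6 windows, and in 66.2% of all 32851 windows of this length. The form CAGCTG lay in 2 of the 6, one at *Sema7a* and one at the third *Robo2* start, and in 13% of all windows. *Epha5* and *Sema5b* had no CANNTG in these bases. These matches describe the letters of the windows and nothing about binding.

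The 8 genes called between pairs of cell types are protein coding, and the counts cover their exons. On mm9 the annotation places *Robo2* at chr16:73892551-74412070 (minus strand), *Epha5* at chr5:84486816-84846407 (minus strand), *Sema7a* at chr9:57787920-57810671 (plus strand) and *Sema5b* at chr16:35541231-35664818 (plus strand). It places *Ephb4* at chr5:137791337-137819897 (plus strand), *Nrp2* at chr1:62749859-62865269 (plus strand), *Plxnb2* at chr15:88985979-89011218 (minus strand) and *Ntn4* at chr10:93103426-93209952 (plus strand).

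The second comparison asks where cHCs differ from mature OHCs. *Ephb4* and *Nrp2* had higher levels in OHCs (P22), and *Epha5*, *Plxnb2* and *Robo2* had lower levels. *Ephb4* was at 176 and 89.2 CPM in OHCs (P22), with a log2 fold change of 11.20 ± 1.72 (edgeR FDR = 0.00829). Against its 3 counts in cHCs the pooled ratio was 2455, with a 95% counting interval of 839 to 11910. *Nrp2* was at 4.98 and 23.9 CPM in cHCs and at 690 and 443 CPM in the mature OHCs, with a log2 fold change of 5.29 ± 1.12 (edgeR FDR = 0.0277). In OHCs (P7) it was already at 351 and 341 CPM, so that all 4 OHC libraries lay above the other 6.

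*Plxnb2*, a receptor of class 4 semaphorins, was at 148 and 265 CPM in cHCs and at 0.53 and 0.13 CPM in OHCs (P22). Its log2 fold change was -9.40 ± 1.19 (edgeR FDR = 0.0044). *Epha5*, at 0.18 and 0.13 CPM in OHCs (P22), had a log2 fold change of -10.28 ± 1.53 (edgeR FDR = 0.00735). *Robo2* was at 4.85 and 0.63 CPM in OHCs (P22) and had a log2 fold change of -6.47 ± 1.23 (edgeR FDR = 0.0174). Each of the 5 genes kept its direction in 4 of 4 library pairs.

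Again 5 of 59 members were called, against 3.18% of all genes tested (1.16% higher and 2.02% lower in OHCs). The median log2 ratio was -1.55 over the members and -0.14 over all genes, and 21 members had an unadjusted p under 0.05. The largest fitted decrease without overlap was that of *Epha2*, an Eph receptor at 6.21 and 12.1 CPM in cHCs and at 0 counts in OHCs (P22). It was at least 116-fold lower there against 3 counts over both libraries and did not pass (edgeR FDR = 0.166). The call of *Nrp2* was lost without cHC 13 (edgeR FDR = 0.0763) or OHC (P22) m21 (0.0689). The titles number the SC, cHC and OHC (P7) libraries in one series and those of OHCs (P22) and IHCs in another, so that any difference between the series cannot be told apart from cell type. In this comparison the summed SC markers moved with the groups (702 and 446 CPM in cHCs against 6.61 and 7.83 CPM in OHCs (P22)). Of the cHC sums, *Prox1*, which was higher in cHCs than in SCs, gave 247 and 293.5 CPM. *Plxnb2* was at similar levels in SCs (132 and 238 CPM) and cHCs, and the part of SC transcripts in its cHC level was not tested.

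The third comparison sets mature OHCs against SCs. *Sema7a* and *Sema5b* were higher in OHCs (P22), and *Ntn4* and *Plxnb2* were lower. *Plxnb2* had a log2 fold change of -9.24 ± 1.18 (edgeR FDR = 0.00102). *Ntn4*, a laminin-related netrin of basement membranes, was at 75.2 and 48.1 CPM in SCs and at 0.18 and 0.29 CPM in OHCs (P22), with a log2 fold change of -7.97 ± 1.92 (edgeR FDR = 0.0285). *Sema7a* was at 26.2 and 10.2 CPM in OHCs (P22) and had a log2 fold change of 7.13 ± 1.34 (edgeR FDR = 0.00833).

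*Sema5b* was at 58.1 CPM in OHC (P22) m21 and at 0.46 CPM in OHC (P22) f22, and the latter lay within the SC range. Its log2 fold change of 6.20 ± 1.67 (edgeR FDR = 0.0448) rested on OHC (P22) m21, without which it was 0.18 (edgeR FDR = 0.998). In that library the 5 glial markers summed to 111 CPM, against 19.5 CPM in its duplicate, and their part in the *Sema5b* level was not tested. Limma-voom did not call *Sema5b* either (log2 fold change 3.38, adjusted p = 0.497).

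Here 4 of 59 members were called, or 6.78%, against 8.02% of all genes tested (4.01% higher and 4% lower), a share near the background. The median log2 ratio was -0.06 over the members and 0.00 over all genes. Of the members without overlap, the largest fitted increase was that of *Sema4f*, a transmembrane semaphorin at 0 counts in SCs and at 0.26 and 62.5 CPM in OHCs (P22) (edgeR FDR = 0.0943). The count of calls depended on single libraries. It was 2 without OHC (P22) m21 and 7 without any one of cHC 13, cHC 16, IHC m74 or IHC m75. The call of *Ntn4* was lost without SC 12 (edgeR FDR = 0.0523), OHC (P22) m21 (0.136) or OHC (P22) f22 (0.0821). That of *Sema5b* was also lost without SC 12 (0.0795) or SC 11 (0.141), and that of *Sema7a* without SC 11 (0.0561). When the fit held just these types, neither *Sema5b* (edgeR FDR = 0.175) nor *Sema7a* (0.102) was called.

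**Figure D4:**
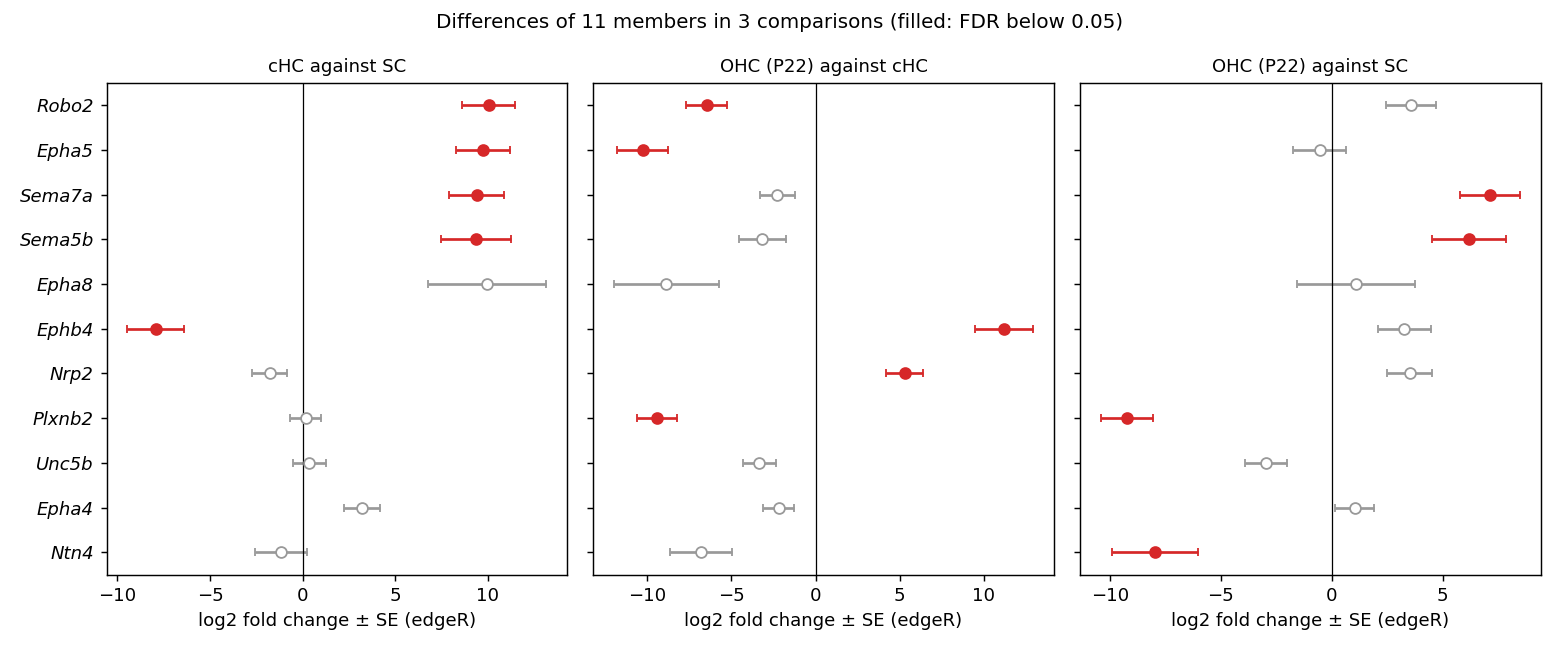
Log2 fold changes (points) and their SE (bars) from edgeR for 11 members in cHCs against SCs, OHCs (P22) against cHCs and OHCs (P22) against SCs. Filled points passed an FDR of 0.05. *Robo2* and *Epha5* lie to the right of 0 in the first panel and to the left of 0 in the second, and *Ephb4* does the opposite. The panels share libraries and are not independent.

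Further comparisons placed cHCs beside immature OHCs and IHCs. *Sema7a* was lower in OHCs (P7), at 0.07 and 0.14 CPM (1 and 5 counts), than in cHCs. Its log2 fold change was -9.62 ± 1.48 (edgeR FDR = 0.0278). The pooled ratio was 795, with a 95% counting interval of 365 to 2167. *Sema7a* was the single member called of 59, against 0.343% of all genes. Within the title forms its log2 ratio was -9.97 and -9.62. *Robo2* was at 38.1 and 35.1 CPM in OHCs (P7), between the levels in cHCs and OHCs (P22), and did not pass in that comparison. The *Sema7a* call was lost without cHC 16 (edgeR FDR = 0.109), OHC (P7) 15 (0.164) or OHC (P7) 14 (0.148). In contrast, 4 members (*Epha5*, *Ephb4*, *Nrp2* and *Sema7a*) were called without SC 12, SC 11, IHC m74 or IHC m75, and 2 (*Epha5* and *Sema7a*) without OHC (P22) m21 or OHC (P22) f22. The largest positive and negative differences of the fit, among members without overlap that did not pass, were those of *Ephb4*, at 11.3 and 5.62 CPM in OHCs (P7) (log2 fold change 7.23, edgeR FDR = 0.0792), and *Efna4*, an ephrin at 0.51 and 9.14 CPM in cHCs and at 0 counts in OHCs (P7) (edgeR FDR = 0.419).

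In IHCs, *Epha5* (0.27 CPM in both libraries) and *Robo2* (1.08 and 0.21 CPM) were lower than in cHCs. The log2 fold changes were -9.42 ± 1.46 (edgeR FDR = 0.0148) and -8.54 ± 1.35 (edgeR FDR = 0.0149). These were 2 of 59 members (3.39%), against 0.924% of all genes. *Unc5d*, a netrin receptor at 0 counts in cHCs, was at 3.84 and 44.8 CPM in IHCs, at least 505-fold higher against 3 counts over both cHC libraries, and did not pass (edgeR FDR = 0.234). *Epha2* was at 0 counts in IHCs (edgeR FDR = 0.275). Without IHC m75 no member was called, although 12 had an unadjusted p under 0.05, and the edgeR FDR of *Robo2* was 0.0532 and that of *Epha5* 0.0632. The *Epha5* call was also lost without cHC 16 (0.102), which left 1 member called, or without IHC m74 (0.0768).

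Between the 2 ages of OHCs, *Plxnb2* fell from 7.99 and 23.3 CPM at P7 to 0.53 and 0.13 CPM at P22, with a log2 fold change of -5.68 ± 1.04 (edgeR FDR = 0.0461). *Sema7a* rose from 0.07 and 0.14 CPM to 26.2 and 10.2 CPM, with a log2 fold change of 7.35 ± 1.36 (edgeR FDR = 0.0461). At P7 it had 1 and 5 counts, the former below the floor of 3 counts. The pooled ratio was 132, with a 95% counting interval of 60.4 to 362. *Plxnb2* and *Sema7a* were 2 of 59 members, against 0.551% of all genes. Both calls stood close to the threshold. The summed SC markers were also lower at P22 (76.7 and 260 CPM at P7 against 6.61 and 7.83 CPM), and their part in the *Plxnb2* difference was not tested. Neither was made with RLE size factors, with limma-voom or when the fit held just OHCs, and neither was made without OHC (P7) 14 (edgeR FDR = 0.0769 for *Plxnb2* and 0.207 for *Sema7a*) or OHC (P22) m21 (0.101 and 0.132). *Plxnb2* also lost its call without OHC (P22) f22 (0.0762), and *Sema7a* lost its call without OHC (P7) 15 (0.204), cHC 13 (0.0608) or cHC 16 (0.097), or with the title form as a term (0.0851).

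Between IHCs and OHCs (P22), *Plxnb2* was the single member called of 59 (1.69%), against 1.46% of all genes, a share near the background. It was at 103 and 36.7 CPM in IHCs, with a log2 fold change of 7.83 ± 1.12 (edgeR FDR = 0.0092). The summed SC markers were also higher in IHCs (804 and 639 CPM, of which *Gjb2* gave 611 and 468 CPM) than in OHCs (P22), and their part in the *Plxnb2* level was not tested. *Plxnb2* was also called with any one library left out, but not by limma-voom (adjusted p = 0.0671) nor when the fit held just these types (edgeR FDR = 0.0773). Leaving out any one of SC 12, SC 11, OHC (P7) 15, OHC (P7) 14, OHC (P22) m21, OHC (P22) f22 or IHC m74 raised the count to 2. Without overlap and without a call, the largest positive and negative differences were those of *Plxnb3*, at 0 counts in OHCs (P22) and at 22.4 and 0.69 CPM in IHCs (edgeR FDR = 0.26), and *Efnb3*, at 0.35 and 11.5 CPM in OHCs (P22) and at 0.13 and 0.07 CPM in IHCs (edgeR FDR = 0.378).

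The joint test of any difference among the 5 cell types called 10 of 59 members (16.9%), against 7.81% of all genes. An unadjusted p under 0.05 was found for 27. Of the 10, *Epha5*, *Robo2*, *Sema7a*, *Plxnb2*, *Ephb4*, *Nrp2* and *Sema5b* are described above, with *Epha5* lowest at an edgeR FDR of 0.000716. *Epha8*, *Unc5b* and *Epha4* were called by the main edgeR fit in this test alone. Limma-voom called none of these 3 in the joint test, but it called *Epha8* in cHCs against SCs. *Epha8* and *Unc5b* were not called without cHC 16, nor was *Unc5b* with the title form as a term. *Epha4* was not called with RLE size factors or without SC 12, OHC (P7) 14, OHC (P22) m21, OHC (P22) f22 or IHC m75. *Epha8*, an Eph receptor, was at 1.15 and 38.0 CPM in cHCs and at most at 0.09 CPM elsewhere (edgeR FDR = 0.0396). Its level in cHCs thus rested largely on replicate 16.

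*Unc5b*, a netrin receptor, was at 122 and 113 CPM in SCs, 57.0 and 247 CPM in cHCs, 20.3 and 26.2 CPM in OHCs (P7), 20.4 and 9.69 CPM in OHCs (P22), and 13.4 and 3.02 CPM in IHCs (edgeR FDR = 0.0438). SCs and cHCs overlapped, and each of their 4 libraries lay above each of the other 6. *Epha4*, which binds both classes of ephrins, was at 2.44 and 9.75 CPM in SCs, 21.5 and 91.9 CPM in cHCs, 74.7 and 160 CPM in OHCs (P7), 11.7 and 13.2 CPM in OHCs (P22), and 107 and 130 CPM in IHCs (edgeR FDR = 0.0492). Its levels in cHCs, OHCs (P7) and IHCs overlapped in the order given, whereas SCs and OHCs (P22) lay below all of these. Among the called members, *Robo2* followed the order cHCs, OHCs (P7), OHCs (P22), IHCs and SCs, in which OHCs (P22) and IHCs overlapped, as did IHCs and SCs.

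The following levels are per kilobase of exon, since they compare genes within a family (CPM per kb, means of 2 libraries). Among Eph receptors the highest was *Ephb6* in SCs (5.23), *Epha5* in cHCs (18.9), *Epha4* in OHCs (P7) (18.6) and IHCs (18.8), and *Ephb4* in OHCs (P22) (28.5). *Ephb4* in OHCs (P22) was above the next receptor, *Epha4* at 1.97, in both libraries. In cHCs *Epha5* overlapped with *Epha4* (8.96). *Epha7*, named after its values were seen, was at 167 and 113 CPM in IHCs, and its level in the other 8 libraries was at most 13.01 CPM.

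Among ephrins, *Efnb2* was the highest in SCs (53.6 CPM per kb), OHCs (P22) (24.3) and IHCs (19.1). *Efna5*, which is anchored by a lipid, led in cHCs (24.2) and OHCs (P7) (16.2), where *Efnb2* was at 22.4 and 15.6 and overlapped with it. In CPM, *Efna5* was at 133 and 62.0 in cHCs, at 79.1 and 51.5 in OHCs (P7) and at 2.56 and 4.67 in OHCs (P22). All 8 ephrins had passed the filter and the main edgeR fit called none of them in any test. An unadjusted p under 0.05 was found for 2 in the joint test and for at most 2 between any pair. *Efna3* stood close to the threshold in the joint test (edgeR FDR = 0.0585). Without the filter on low counts, edgeR called *Efna1*, *Efna3* and *Efna5* in that test. DESeq2 and limma-voom each called *Efna1*, *Efna3* and *Efna5* in the joint test, and *Efna3* in cHCs against SCs. *Efnb2*, whose product is a ligand of the *Ephb4* receptor, was at 128 and 105 CPM in OHCs (P22), the cell type with the highest *Ephb4*. It was at 297 and 216 CPM in SCs, and at 133 and 82.3 CPM in cHCs, where *Ephb4* had 3 counts in all.

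Among semaphorins, *Sema6d* led per kilobase in SCs (8.65), *Sema5b* in cHCs (37.0), OHCs (P7) (38.5) and IHCs (37.0), and *Sema4c* in OHCs (P22) (29.7). *Sema4c*, a ligand of B-type plexins, was at 0.04 and 1.38 CPM in SCs, 0.09 and 26.8 CPM in cHCs, 61.8 and 48.9 CPM in OHCs (P7), 144 and 129 CPM in OHCs (P22) and 20.4 and 3.68 CPM in IHCs. *Sema3a*, a secreted ligand of neuropilins, reached at least 21.2 CPM in all libraries and was at 161 and 163 CPM in OHCs (P22). Among plexins, *Plxnb2* led in SCs (25.3 CPM per kb) and cHCs (28.2), *Plxna1* in OHCs (P7) (19.8) and OHCs (P22) (12.8), and *Plxnb1* in IHCs (14.2).

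*Nrp2* was the only neuropilin detected in any cell type, at 36.4 CPM per kb in OHCs (P7) and 59.6 in OHCs (P22). *Nrp1* was at 15.7 CPM in OHC (P7) 15 and at or below 0.09 CPM in the other 9 libraries, and it did not pass the filter. The collagen genes *Col1a2* and *Col3a1* were at 223 and 119 CPM in that library and at 0 in its duplicate. The other mesenchyme markers of their list were mixed. In OHC (P7) 15 and 14, *Col1a1* was at 11.5 and 2.37 CPM, *Emilin2* at 1.07 and 21.7 CPM and *Pdgfra* at 67.8 and 94.2 CPM. The part of mesenchymal transcripts in the *Nrp1* level was not tested.

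Slits were low in all cell types. *Slit3* was the highest in SCs, cHCs, OHCs (P22) and IHCs and *Slit2* in OHCs (P7), at means of 0.0729 to 0.602 CPM per kb, and the levels of the leading Slit overlapped with those of the next in every cell type. In CPM, *Slit2* and *Slit3* reached at most 6.85 (OHC (P7) 15) and 6.80 (IHC m75). Neither had an unadjusted edgeR p under 0.05 in any of the tests, and DESeq2 and limma-voom called neither. *Robo1* was the higher Robo receptor in SCs (11.6 CPM per kb), OHCs (P22) (2.46) and IHCs (4.52), and *Robo2* in cHCs (14.6) and OHCs (P7) (2.22), in each case in both libraries.

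*Ntn4* was the highest netrin in SCs (16.5 CPM per kb), cHCs (7.43), OHCs (P7) (0.916) and IHCs (4.03). In OHCs (P22) the highest was *Ntn1* (0.96), which had 0 counts in library m21 and 12.04 CPM in library f22. *Unc5b* was the highest netrin receptor in SCs (20.1), cHCs (25.96), OHCs (P7) (3.98) and OHCs (P22) (2.57), and *Unc5d* in IHCs (2.72), where the duplicates differed widely. *Dcc*, the receptor for attraction by netrins, was at or below 3.06 CPM in all libraries.

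Duplicates disagreed for some members. The shares of members below draw on all 69 members, whereas those of all genes draw on the genes that passed the filter. *Nrp1*, which did not pass, is among the members that disagreed in OHCs (P7). Of the members at 10 CPM or more in at least 1 library of a cell type, the other library was under 1 CPM for 5 of 27 in SCs, 3 of 35 in cHCs, 3 of 28 in OHCs (P7), 8 of 23 in OHCs (P22) and 2 of 28 in IHCs. The share was 34.8% in OHCs (P22), against 10.8% of all tested genes there, and 7 of the 8 members were high in library f22. It was 18.5% against 8.63% in SCs, 8.57% against 5.39% in cHCs, 10.7% against 5.55% in OHCs (P7) and 7.14% against 6.07% in IHCs, the last being near the share of all genes. Across the 68 members with counts, Spearman's rank correlation between duplicates was 0.727 in SCs, 0.830 in cHCs, 0.804 in OHCs (P7), 0.672 in OHCs (P22) and 0.804 in IHCs. As a description across genes that share libraries, the mean rank correlation of cHCs was 0.661 with OHCs (P7), 0.559 with SCs, 0.520 with OHCs (P22) and 0.4998 with IHCs.

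The 10 members that did not pass the filter were *Epha3*, *Epha6*, *Epha10*, *Nrp1*, *Ntn5*, *Robo3*, *Robo4*, *Sema3c*, *Sema3g* and *Slit1*. *Robo4* had no count, *Sema3c* reached 3.36 CPM in OHC (P7) 15, and the others apart from *Nrp1* were at or below 0.26 CPM. Some of *Ntn5* (25.9% of its exon bases), *Efna3* (14.1%), *Plxna1* (10.8%) and *Efna4* (10.5%) overlaps other annotated genes, and the strand setting of the counting was not given, so that their counts are less certain.

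Other genes of the pathway were counted from 2 lists, one of 21 further cues and co-receptors, of which 19 were tested, and one of 44 cytoplasmic effectors, of which 43 were tested. The shares of all genes called in the same tests were 1.84% for cHCs against SCs, 3.18% for OHCs (P22) against cHCs, 8.02% for OHCs (P22) against SCs, 0.343% and 0.924% for OHCs (P7) and IHCs against cHCs, 0.551% for OHCs (P22) against OHCs (P7) and 1.46% for IHCs against OHCs (P22). In cHCs against SCs, edgeR called 1 cue or co-receptor and 3 effectors higher and none lower, with 8 and 10 genes at an unadjusted p under 0.05. DESeq2 called 7 and 8 in either direction and limma-voom 5 and 7. *Dscaml1*, a homophilic adhesion molecule, was at 0.04 and 0.21 CPM in SCs and at 33.02 and 52.8 CPM in cHCs (log2 fold change 8.24 ± 1.18, edgeR FDR = 0.00379). *Crmp1*, a collapsin response mediator that acts downstream of semaphorins, was at 0.04 and 0.08 CPM in SCs and at 13.3 and 30.03 CPM in cHCs (8.30 ± 1.30, edgeR FDR = 0.00634). *Pak3*, a kinase activated by Rac and Cdc42, was at 8.75 and 11.1 CPM in SCs and at 414 and 426 CPM in cHCs (5.40 ± 0.47, edgeR FDR = 0.000124). These 3 genes were also between 13.75 and 1108 CPM in each OHC and IHC library.

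In OHCs (P22) against cHCs, edgeR called 2 cues or co-receptors lower and none higher, and 3 effectors higher and 3 lower, with 11 and 15 genes at an unadjusted p under 0.05. DESeq2 called 10 and 12 in either direction and limma-voom 2 and 6. *Cntn1*, a contactin of the cell surface, was at 79.7 and 91.9 CPM in cHCs and at 1.41 and 0.80 CPM in OHCs (P22) (log2 fold change -6.28 ± 1.06, edgeR FDR = 0.0113). *Kalrn*, a guanine nucleotide exchange factor, was at 24.0 and 7.90 CPM in cHCs and at 479 and 568 CPM in OHCs (P22) (5.04 ± 0.91, edgeR FDR = 0.0143). In OHCs (P22) against SCs, 1 cue or co-receptor was higher and 4 were lower, with 5 effectors higher and 6 lower. Among them *Neo1*, a receptor of netrins and repulsive guidance molecules, had a log2 fold change of -2.50 ± 0.62 (edgeR FDR = 0.0328) and *Rgma*, one of its ligands, -8.11 ± 1.82 (edgeR FDR = 0.0208). *Mical2*, of a family of actin-oxidizing enzymes that includes effectors of plexins, had a log2 fold change of 12.33 ± 2.03 (edgeR FDR = 0.00423). In the other comparisons, OHCs (P7) and IHCs against cHCs gave 2 calls each and IHCs against OHCs (P22) also 2. In OHCs (P22) against OHCs (P7) edgeR called none, with 5 and 11 genes of the lists at an unadjusted p under 0.05, while DESeq2 called 4 and 7 and limma-voom 0 and 1.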

How the data were processed

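Total RNA of handpicked cells was amplified by single primer isothermal amplification and sequenced as paired-end reads. Per the labels and methods, base calling used CASAVA 1.7, adapters were trimmed with Cutadapt, reads were mapped to mm9 with STAR and BWA, and genes were counted with HTSeq (other versions and the strand setting are not given in the sources used here). The deposited values are raw counts per gene symbol, by the authors, without normalization. Reads not assigned to a gene (44.2% to 72.1% per library) were left out.

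Each file was taken for the library whose listed CPM were a constant multiple of its counts (coefficient of variation at most 0.000138% over genes with at least 10 counts, and at least 170.1% for any other file). Differences were tested 2-sided with edgeR 4.0.16 in R 4.3.3 (TMM, filterByExpr by cell type, quasi-likelihood F-tests, 1 model of 10 libraries). This left 16891 genes with a common dispersion of 1.12, over all of which the FDR was computed (Benjamini-Hochberg, threshold 0.05). SE is the log2 fold change divided by the square root of F. A level or bound at 0 counts was set against 3 counts, which correspond to 0.0740 to 0.200 CPM before TMM scaling. Bounds and intervals (95%, exact binomial) cover counting error only. Exon lengths, gene models and overlaps are from GENCODE vM1 (mm9).

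Alternatives were DESeq2 1.42.0, limma-voom 3.58.1, RLE size factors, no filter, a minimum of 10 counts in every library, only the compared types in the fit, title form as a term, the files as attached, and leaving out each library. The tests were tried on simulated data. Members, lists and tests were chosen with earlier results of these data known. Genes were named if called in any test, if highest per exon length in their family in a cell type, or if they had the largest rise or fall without overlap in a comparison, and others are named as examples chosen after their values were seen. Figures were drawn with matplotlib 3.10.9.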

Additional observations from a re-analysis of the deposited data

How the results depend on the processing

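Counts of called members are given in the order any difference, cHCs against SCs, OHCs (P22) against cHCs, OHCs (P22) against SCs, OHCs (P7) against cHCs, IHCs against cHCs, OHCs (P22) against OHCs (P7), and IHCs against OHCs (P22), where edgeR gave 10, 5, 5, 4, 1, 2, 2 and 1. DESeq2 called 31, 14, 17, 18, 8, 15, 9 and 9. Without the filter on low counts edgeR called 29, 11, 14, 12, 5, 7, 6 and 9 of 68 members tested. Limma-voom called 18, 11, 9, 9, 4, 8, 0 and 2. A minimum of 10 counts in every library left 13 members, none of the genes called between cHCs and SCs among them, and gave 4, 0, 2, 2, 0, 1, 0 and 0 calls. RLE size factors moved the test of any difference to 8 (without *Epha4* and *Sema5b*) and OHCs (P22) against OHCs (P7) to 0. Title form as a term moved these to 8 (without *Sema5b* and *Unc5b*) and 1. A fit of only the compared types moved cHCs against SCs to 4, and OHCs (P22) against OHCs (P7) and IHCs against OHCs (P22) to 0 each. The cause of these shifts was not tested. The shares of all genes called under these settings, or with a library left out, are not given here. Nor are the shares of all genes at an unadjusted p under 0.05. These counts are therefore not read as a result about the members. At an unadjusted p under 0.05 the tests with 0 calls held 12 members with limma-voom, 10 with RLE size factors, 10 and 14 with only the compared types, and 3, 4, 2 and 3 with the 10-count minimum.

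Leaving out one library at a time gave 9 to 13, 2 to 5, 4 to 7, 2 to 7, 0 to 4, 0 to 3, 0 to 2 and 1 to 2 calls. With the files as attached to the records, all 8 counts were 0, with 16, 5, 7, 12, 4, 6, 12 and 9 members at an unadjusted p under 0.05. The log2 fold change then reversed for *Epha5* (-5.56), *Ephb4* (1.34), *Robo2* (-2.62), *Sema5b* (-0.48) and *Sema7a* (-8.74) in cHCs against SCs, for *Sema5b* (-2.78) and *Sema7a* (-0.90) in OHCs (P22) against SCs, for *Sema7a* in OHCs (P7) against cHCs (9.41) and for *Sema7a* in OHCs (P22) against OHCs (P7) (-1.56). No other setting reversed a called difference. The number of detected members moved by less than 1.5 times when detection required 10 counts in both libraries (24 to 40 members) or used RLE size factors (20 to 36). At 3 counts the depth allows no statement below 0.0740 to 0.200 CPM. No paired analysis was possible because the libraries of different cell types share no replicate number, and the labels do not give title form, used as a term above, as a pairing.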
